A study of Mus musculus with 18 samples.

Results

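The variable region of the mouse immunoglobulin heavy chain locus (Igh) is the stretch of chromosome 12 that holds the J, D and VH gene segments. It was taken as mm9 chr12:114666725-117270000, from the J segments to the last VH genes and short of Zfp386, and a peak was counted when its centre lay inside. Of the 54864 peaks in the 12 deposited RAD21 peak lists, 19 lay there, and they merged into 12 of the 18957 sites. The rule uses position only, so no measured value chose the members. RAD21 is the kleisin subunit of cohesin, the ring complex that holds sister chromatids together and forms chromatin loops. The cells were purified splenic B cells of C57BL/6 mice (C57BL/6J in the study's methods) of 8 to 10 weeks. They were resting (0 h), or had been stimulated in culture with 50 µg/ml LPS and 2 ng/ml IL-4 for 48 h or for 96 h to switch to IgG1. Each time point had 3 replicates, and every replicate pooled the cells of 12 mice. IgG1-positive cells were enriched at 96 h only, so that time and purification cannot be told apart there. Each time point also had 1 pooled list, called on the merged reads of its replicates, which is not a further replicate.

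In developing B cells a VH segment is joined to a D and a J segment by V(D)J recombination, cut at the recombination signal sequence that lies directly downstream of each VH gene. The VH genes fill a long array. Families Ighv5 and Ighv2 (Q52) lead near the D segments and family Ighv1 (J558) leads at the far end. The locus contracts by looping in pro-B cells, and cohesin is stopped in such loops at CTCF, a zinc finger protein with a long directional binding motif. The interval between the VH genes and the D segments is known for IGCR1, an insulator with a pair of CTCF-binding elements. Mature B cells, such as those studied here, have already completed V(D)J recombination and carry a rearranged locus, in which part of the array can be deleted. The reference genome shows the germline order.

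The 12 sites were of 2 kinds, and their sequences, read from mm9, show the difference. To describe the sequence, a 20-base motif was built from 900 sites of other chromosomes that 6 or more replicates shared. Its consensus, GCCACTAGGGGGCGCCAGAG, holds the core of the CTCF motif. Windows of 100 bp on either side of a site centre were searched for the motif on both strands, and a best score of 8.59 log2 odds or more counted as a match, a level that 90% of the training sites and 5% of windows lying 1000 bp away passed. In the Igh variable region 6 of 12 sites had a match. The 6 sequences below are these matches, in capitals with 5 flanking bases on each side, 5′ to 3′ on the strand of the match.
Upstream of Ighd1-1: tcataGCCACAAGGGGGAAGCAGAGactta
Upstream of Ighv1-9: tcatgACCAGCAGGGGGCACAATGAgacca
Upstream of Ighv1-14: tcatgACCAGCAGGGGGCACTATGAgacca
Upstream of Ighv8-6: acaggACCAGCAGGGGGTGGTGTAGattca
Upstream of Ighv1-55: tctggACCAGCAGGGGGCACAATGGggcca
Upstream of Ighv1-56: acaggACCAGCAGGGGGTGGTGTAGattca
In this order they lie at chr12:114726093-114726122 on the plus strand and, on the minus strand, at chr12:115825633-115825662, chr12:115888826-115888855, chr12:116410141-116410170, chr12:116447524-116447553 and chr12:116500819-116500848. They scored 22.1, 19.9, 22.3, 19.7, 21.5 and 19.7 log2 odds, all above 17.7, the median of the training sites. The sequences at Ighv8-6 and Ighv1-56 are the same in all 30 bases. The other 6 sites had no match and held stretches of alternating A and G of 17 to 51 bases. The stretch at the site upstream of Ighv14-2 (chr12:115243086-115243115, plus strand, alternating part in capitals) is shown as their example.
Upstream of Ighv14-2: agagacAGAGAGAGAGAGAGAGAtacagag

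The 6 sites without a match were the 6 sites with a peak in 48 h replicate 2, and this library stood apart in the whole genome. Of its 5254 peaks, 4.70% were at sites with a match, against 86.8% to 93.8% in the other 8 replicates. Its median peak width was 65 bp, against 151 to 212 bp in the other 8. In the rest of chromosome 12, 133 of 254 sites with a peak in 48 h replicate 2 (52.4%, exact 95% interval 46.0% to 58.6%) held at least 16 alternating bases of A and G, against 6 of 563 other sites (1.07%, 0.392% to 2.31%). The density of peaks, the share between time points, the parts of the array and the comparison with other V gene arrays are therefore also given without this library. Of the 12 sites, 7 had a peak outside 48 h replicate 2 and the 48 h pooled list.

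**Figure D1:**
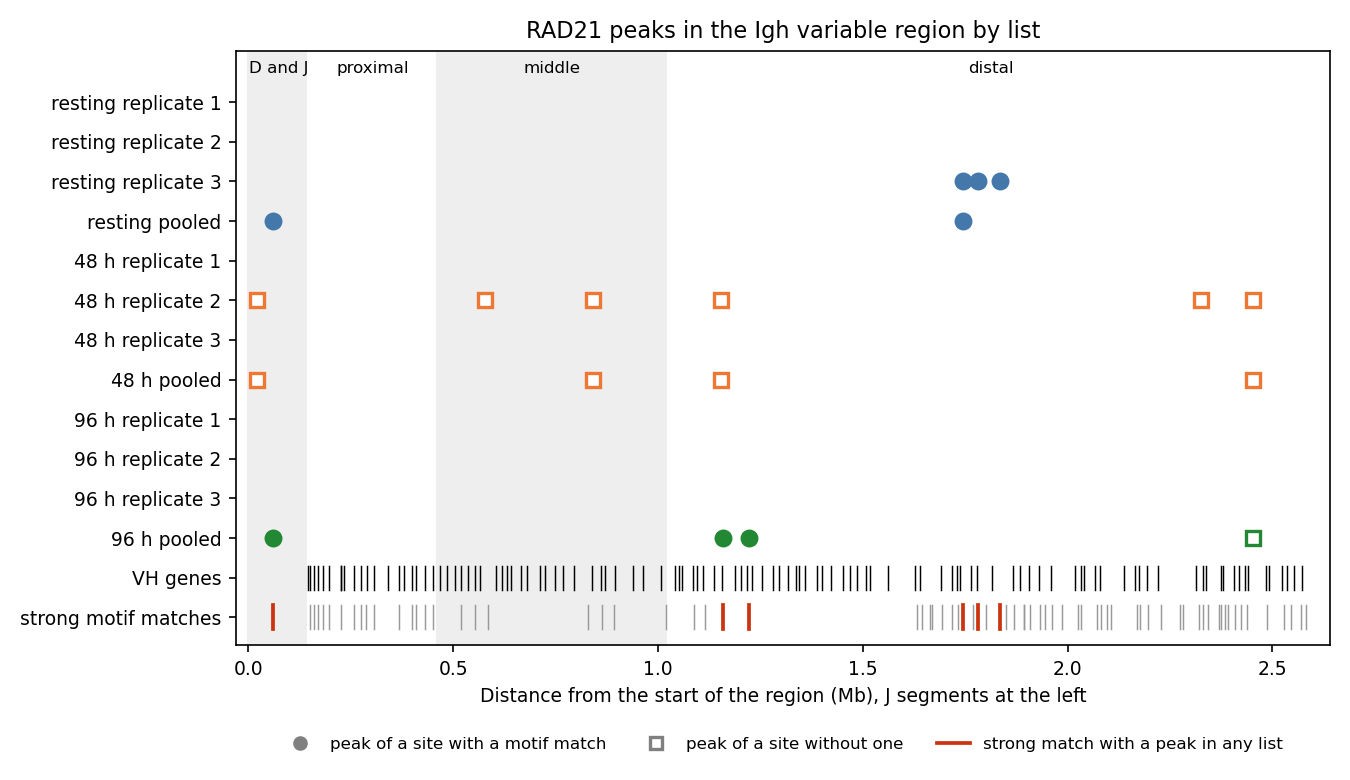
Each row is 1 peak list and each symbol 1 peak, placed by its distance in Mb from the start of the region, with the J segments at the left. Filled circles are peaks of sites with a motif match and open squares peaks of sites without one. The bottom rows mark the 112 VH genes and the 76 motif matches at or above the median level of the training sites, the 6 with a peak in red, and shading separates the parts. No peak lies in the proximal part, and 7 of the 9 replicate rows are empty.

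No site of the region had a peak in more than 1 replicate. Over the genome, 39.9% of the 15225 sites with a peak in any replicate had one in at least 2, and in the region 0 of 9 did. Of these 9 sites, 6 were of 48 h replicate 2 and 3 of resting replicate 3. Both counts include 48 h replicate 2 and were not taken without it. Of the 12 sites, 3 were in pooled lists only, 4 in a single replicate only, 2 in lists of more than 1 time point and 0 in all 3 pooled lists. No site therefore reached the minimum set for naming single sites (3 replicates or all 3 pooled lists). All 12 are described because they are few, a choice made after their values were seen. The counts of sites by kind of list are description only, since no share over the genome is set beside them. In the following, a score percentile is the rank of a peak's score among the peaks of its own list, where 100 is the highest.

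In the D and J segments there were 2 sites. The first, chr12:114726014-114726171, lies upstream of Ighd1-1, the D segment nearest to the VH genes, and 1664 bp upstream of Adam6b, a sperm fertility gene embedded in the locus. It had a peak in the resting pooled list at percentile 19.9 and in the 96 h pooled list at percentile 32.3, and in none of the 9 replicates. Its match, on the plus strand, is centred 5705 bp upstream of Ighd1-1. A second match on the minus strand, centred 3081 bp upstream of Ighd1-1 and 2624 bp from the first, scored 17.9 log2 odds and had no peak in any list.
Second match upstream of Ighd1-1: tcctcTCCACAAGAGGGCAGAATTCgggtg
The second match lies at chr12:114723469-114723498. The matches point away from each other, and both lie in largely unique sequence (88.6% and 89.6% of the 32-base words within 100 bp occur once in mm9). These are the only 2 matches at or above 17.7 log2 odds, called strong matches from here on, in the D and J segments. The other site, chr12:114686222-114686327, lies 151 bp downstream of Ighd3-2 and had peaks in 48 h replicate 2 (percentile 80.5) and the 48 h pooled list (65.3). None of its 32-base words was unique, and the pooled list contains the reads of replicate 2.

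The proximal part holds 20 VH genes and had 0 peaks in any of the 12 lists. The middle part holds 25 VH genes and had 2 sites, both of 48 h replicate 2 and without a match. The site chr12:115243085-115243142, 10004 bp upstream of Ighv14-2, had a percentile of 28.6. The site chr12:115507049-115507127, 971 bp upstream of Ighv13-1, had percentiles of 80.5 in the replicate and 80.4 in the 48 h pooled list. No resting or 96 h list had a peak in either part.

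The distal part holds 67 VH genes and had 8 of the 12 sites. In resting B cells there were 3, all in replicate 3, with a match, and upstream of a VH gene. They were chr12:116410023-116410207, 5827 bp upstream of Ighv8-6, at percentile 10.6, chr12:116447471-116447627, 811 bp upstream of Ighv1-55, at percentile 50.1, and chr12:116500733-116500877, 19499 bp upstream of Ighv1-56, at percentile 24.7. The first was also in the resting pooled list, at percentile 13.4. In 96 h-stimulated B cells 2 sites with a match were in the pooled list alone, at chr12:115825580-115825719, 3436 bp upstream of Ighv1-9 (percentile 25.7), and at chr12:115888736-115888902, 3743 bp upstream of Ighv1-14 (percentile 39.2). The resting sites with a match in the distal VH genes thus rest on 1 replicate, and the 96 h sites on the pooled list alone. None was in more than 1 replicate, so no difference in sites between the time points is read from them.

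The other 3 distal sites had no match. They were chr12:115820387-115820479, 1347 bp downstream of Ighv1-9, with percentiles of 84.5 in 48 h replicate 2 and 84.3 in the 48 h pooled list, chr12:116992322-116992387, 3841 bp downstream of Ighv1-72, at percentile 60.4 in 48 h replicate 2, and chr12:117118371-117118510, 11163 bp upstream of Ighv1-78. This last site had percentiles of 66.0 in 48 h replicate 2, 80.4 in the 48 h pooled list and 8.74 in the 96 h pooled list. It was the only site without a match that had a peak outside the 48 h lists. The nearest sites beyond the region were chr12:114522069-114522126, with a peak in 48 h replicate 2, and chr12:117288017-117288226 in Zfp386, with peaks in the resting pooled list, 96 h replicate 3 and the 96 h pooled list.

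Peaks also differed in shape and rank. All peaks at sites with a match were of resting or 96 h lists, and none of the 48 h lists. Kind of site and library thus cannot be told apart in the following medians. The 8 peaks at sites with a match were 140 to 185 bp wide (median 158 bp) and had percentiles from 10.6 to 50.1 (median 25.2), so that only 1 of them reached the middle of its list. The 10 peaks of the 48 h lists were 58 to 104 bp wide (median 72.5 bp) and had percentiles from 28.6 to 84.5 (median 80.4). The remaining peak without a match, of the 96 h pooled list, was 140 bp wide and at percentile 8.74. Only 2 replicates had peaks in the region, with median percentiles of 24.7 in resting replicate 3 and 73.3 in 48 h replicate 2. The exact sign-flip test of the median percentile against 50 gave p = 1, and the smallest p that 2 replicates allow is 0.5, so the rank of the peaks could not be tested.

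**Figure D2:**
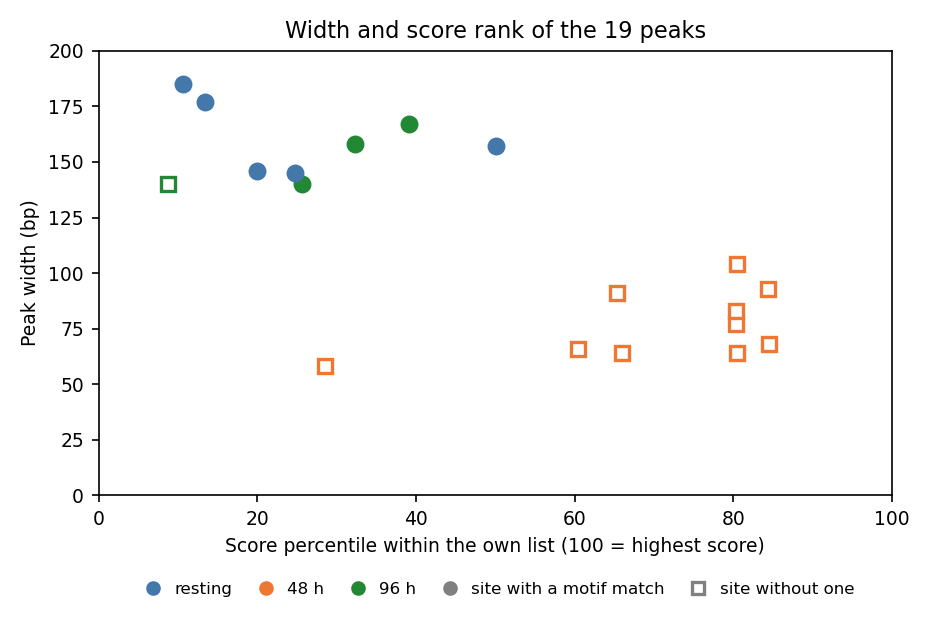
The 19 peaks are plotted by score percentile within their own list on the x axis and by width in bp on the y axis. Peaks of sites with a match (filled circles) sit at 140 bp or more and at or below percentile 50.1, whereas the 48 h peaks of sites without a match (orange squares) sit at 104 bp or less. The green square is the 96 h pooled peak without a match, 140 bp wide.

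To ask whether RAD21 peaks are as dense in the Igh variable region as elsewhere, the number of peaks in each list was set against the number expected at the density of the rest of chromosome 12. In resting B cells the replicates had 0, 0 and 3 peaks in the region, with 1.86, 0.635 and 2.95 expected. In 48 h-stimulated B cells they had 0, 6 and 0 peaks, with 1.38, 5.80 and 1.61 expected. In 96 h-stimulated B cells all 3 replicates had 0 peaks, with 2.77, 4.56 and 8.11 expected. Over the 9 replicates 9 peaks were found and 29.7 expected. The pooled lists had 2, 4 and 4 peaks at rest, 48 h and 96 h, with 4.96, 5.78 and 12.2 expected.

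The log2 ratio of found to expected peaks, with 0.5 added to both, had a mean of -1.94 ± 1.40 (SD, n = 9) and was below 0 in 7 of 9 replicates. The exact two-sided sign-flip permutation test gave p = 0.0156, the same after Benjamini-Hochberg adjustment over the 2 areas of comparison. Against the rest of the genome the mean was -2.04 ± 1.39 (SD, n = 9), below 0 in 8 of 9 replicates (exact p = 0.0078, adjusted p = 0.0156). The 2 replicates at or above expectation, resting replicate 3 (log2 ratio 0.02) and 48 h replicate 2 (0.04), were the ones with peaks. Without 48 h replicate 2 the mean was -2.19 (exact p = 0.0156). With only peaks at sites with a match, 3 were found in the 9 replicates and 21.8 expected, and the mean was -1.91 ± 1.28 (SD, n = 9, exact p = 0.0078). Since 0 is a common count where fewer than 2 peaks are expected, the log2 ratio of a short list falls below 0 easily. On the difference in number of peaks, the mean was -2.30 per replicate (exact p = 0.0156).

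**Figure D3:**
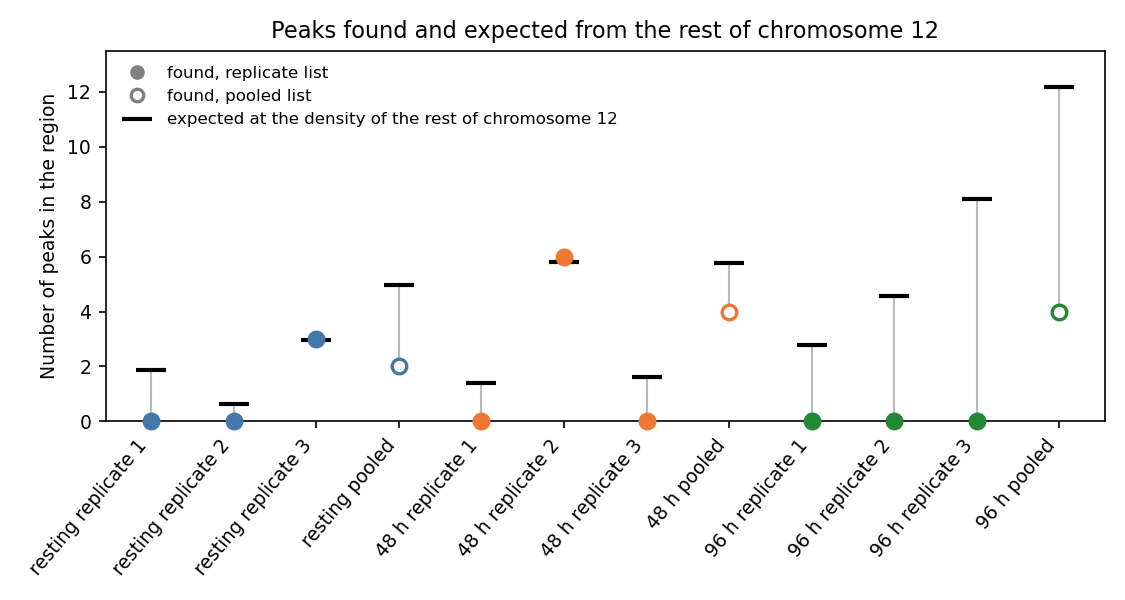
For each of the 12 lists the circle is the number of peaks in the region and the black bar the number expected at the density of the rest of chromosome 12. Filled circles are replicates and open circles pooled lists. The circles of the 96 h replicates lie at 0, below bars at 2.77, 4.56 and 8.11.

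The 3 replicates of 96 h-stimulated B cells together had the most peaks. They had 681 peaks on chromosome 12 and 0 in the region, whereas the region is 2.22% of sequenced chromosome 12. Counting error alone would allow a share of up to 0.441%. The replicates share sites, however, so their peaks are not independent and this limit is too low. For replicate 3 alone, with 358 peaks on the chromosome, the limit is 0.838%. Between the 96 h replicate sites on either side of the region lay a gap of 2.79 Mb. By length it had rank 9 among 407 such gaps on chromosome 12, of which the longest was 5.61 Mb. Stretches of this length without a 96 h replicate peak were thus not particular to the Igh variable region. Of 947 windows of the same length over the genome, 88 (9.29%) also had 0 peaks in the 96 h replicates, and 189 (20.0%) had at most 9 peaks in the 9 replicates, where the median window had 26. On chromosome 12, 10 of 43 windows had at most 9.

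Reads are harder to place in this region than elsewhere. Of its 32-base words, 59.9% occurred once in the genome, against 82.2% in the rest of chromosome 12. How reads with several possible positions were treated is not given in the sources used here. When density was taken per unique base pair, 21.6 peaks were expected in the 9 replicates in place of 29.7, and the mean log2 ratio was -1.58 (exact p = 0.0156). The share of the difference in density that goes with repeated sequence beyond this scaling was not tested.

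The share of each list in the region was compared between time points. It was 0.0279% ± 0.0484 at rest, 0.0381% ± 0.0659 at 48 h and 0 in all replicates at 96 h (SD, n = 3 each). The F statistic, tested by exact permutation over 1680 arrangements, gave p = 1. The pairwise differences were 0.010 percentage points for 48 h minus resting, -0.028 for 96 h minus resting and -0.038 for 96 h minus 48 h, with an exact p of 1 each. Since only 1 replicate had a share above 0 at rest and 1 at 48 h, both pairs with 96 h give p = 1 in every arrangement of an exact test and could not show a difference. The 48 h mean came from 48 h replicate 2 alone. Without it the 48 h share was 0 and the 48 h minus resting difference was -0.028 percentage points (exact permutation p of F = 1, with 1 of 8 replicates above 0). With 7 of 9 replicates at 0, a change between time points could not be tested by these shares.

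At single sites, no site of the region was in every replicate of one time point and in none of another. Over the genome such sites made up 5.85% (601 of 10276) for 96 h and not resting, 5.69% for 96 h and not 48 h, 1.27% for resting and not 48 h, 0.0876% for resting and not 96 h, 0.0605% for 48 h and not resting and 0.0206% for 48 h and not 96 h. In the region, each of the 9 sites with a replicate peak had it in exactly 1 replicate, so neither this count nor the following test could have called any of them, and their 0 is fixed by that. The Fisher-Freeman-Halton exact test over the 3 time points gave 0 sites at an adjusted p of 0.05 in the region and 0 of 15225 in the genome (0%). At an unadjusted p of 0.05 there were 0 of 9 in the region, where each site had p = 1 by this exact test, and 465 in the genome (3.05%). The smallest p that 9 replicates allow is 0.0357, too large to pass adjustment over the genome.

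The peaks of the pooled lists were also set against those of single replicates. In 96 h-stimulated B cells 0 of the 4 pooled peaks overlapped a peak of any 96 h replicate (exact 95% interval 0% to 60.2%), against 392 of 537 (73.0%) in the rest of chromosome 12. At rest 1 of 2 did, against 147 of 219 (67.1%). At 48 h 4 of 4 did, all through replicate 2, against 198 of 255 (77.6%). None of the 10 pooled peaks overlapped peaks of 2 replicates, where 29.2%, 14.1% and 36.5% did at rest, 48 h and 96 h in the rest of the chromosome. With 2 to 4 pooled peaks a time point the intervals are wide, and these differences were not tested.

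The density of replicate peaks was also compared among the VH genes. The proximal part had 0 peaks per Mb in all 9 replicates, the middle part a mean of 0.394 and the distal part a mean of 0.422. No difference passed the exact sign-flip permutation test. Middle minus proximal was 0.394 per Mb (exact p = 1), distal minus proximal 0.422 (p = 0.5) and distal minus middle 0.028 (p = 1), with an adjusted p of 1 each, and only 1 or 2 of the 9 replicates had a difference other than 0. All peaks of the middle part were from 48 h replicate 2, without which its mean excess over the proximal part was 0. The parts differed in unique sequence too, with 64.7% of 32-base words unique in the proximal, 73.9% in the middle and 54.3% in the distal part, and 55.8% in the D and J segments.

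The region had 76 strong matches, or 29.2 per Mb, against 19.3 per Mb in the rest of chromosome 12. Of those around which at least 80% of the 32-base words within 100 bp were unique, there were 23, or 8.84 per Mb, against 8.51 per Mb. All 74 strong matches among the VH genes were on the minus strand, as were 110 of the 112 VH genes, whereas the rest of the chromosome had 1112 on the plus and 1105 on the minus strand. Strong matches per Mb were 47.8 in the proximal, 12.4 in the middle and 32.9 in the distal part. The part richest in matches, the proximal, had no peak. A count of 0 of its 15 matches has an exact binomial interval of 0% to 21.8%. The share of strong matches with a peak in any list in the rest of chromosome 12, 12%, lies inside this interval. No lack of peaks at the proximal matches is therefore read from this count.

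The place of the strong matches beside the genes differed along the array. In the proximal part 15 of 20 VH genes had a strong match within 100 bp downstream, with its centre 64 to 74 bp from the annotated end of the gene, the side of the recombination signal sequence. The consensus heptamer of that signal, CACAGTG, was found on the strand of the gene in the 10 bases after the annotated end for 7 of these 15 genes, and for 10 of all 20 proximal, 14 of 25 middle and 49 of 67 distal genes. By family the 15 proximal genes with a downstream match were 8 of the 10 Ighv5 genes and 7 of the 10 Ighv2 genes. In the middle part 2 of 25 genes, Ighv4-1 and Ighv11-1, also had a downstream match, at 69 bp. Of the 67 distal genes, 0 had a strong match within 100 bp downstream. Within 5 kb upstream 29 had one, its centre at a median of 3029 bp from the start of the gene. They included 26 of the 56 Ighv1 genes and 3 of the 8 Ighv8 genes. In the other parts 2 proximal genes and 1 middle gene also had an upstream match within 5 kb. The 2 proximal ones are also downstream matches of neighbouring genes. A peak lay at 0 of the 15 proximal matches and at 3 of the upstream matches, those of Ighv1-9, Ighv1-14 and Ighv1-55. A match from each proximal family is shown for comparison with the distal sequences above.
Downstream of Ighv5-17: ttgggACCAGCAGGGGGCGCTGAGAgaaca
Downstream of Ighv2-2: tcaggACCAGCAGGGGGCAGTGAAGcccaa
They lie on the minus strand at chr12:115097278-115097307 and chr12:114826394-114826423, centred 67 bp and 69 bp from the end of their gene, and scored 20.8 and 22.7 log2 odds. Around the first, 94.5% of the 32-base words were unique, and it had no peak.

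**Figure D4:**
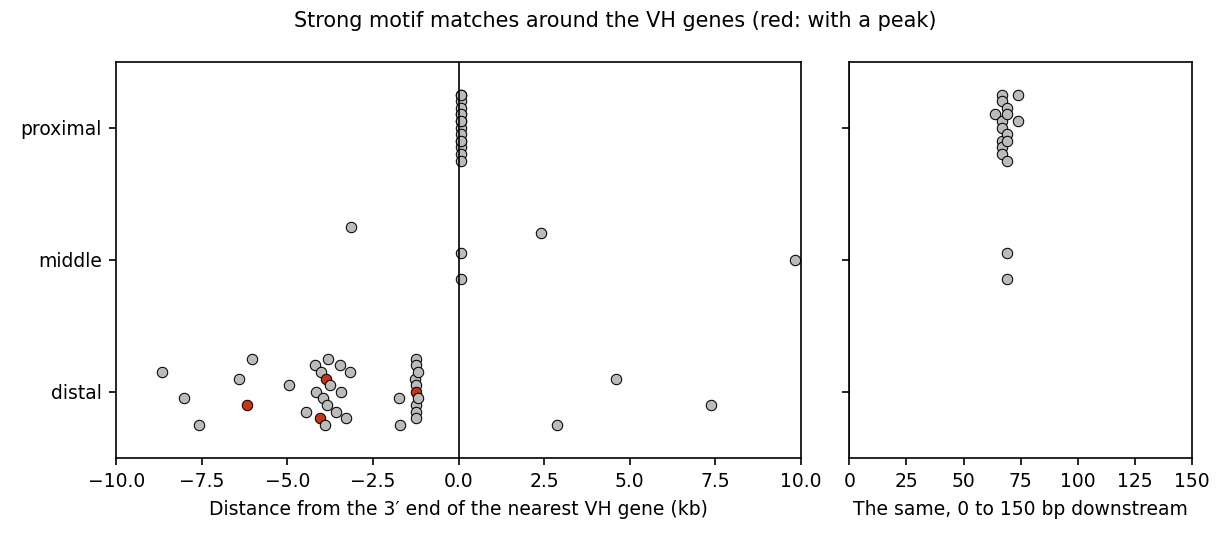
Each point is a strong match of the proximal (15), middle (7) or distal (52) VH genes, placed by the distance of its centre from the 3′ end of the nearest VH gene, in kb at the left and in bp at the right, with positive values downstream. Matches beyond 10 kb (2 middle and 14 distal) are not drawn, and height within a row only spreads the points. Proximal matches stand 64 to 74 bp downstream of the genes and none has a peak, while the distal matches with a peak (red) are upstream.

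Of the 76 strong matches 6 had a peak in any list (7.89%, exact 95% interval 2.95% to 16.4%), against 266 of 2217 in the rest of chromosome 12 (12%, 10.7% to 13.4%). In replicates these were 3 (3.95%) against 206 (9.29%). Intervals were computed only for peaks in any list, and these overlap, so no difference is read from the replicate shares. By list, resting replicate 3 had peaks at 3 of the 76 matches, against 65 of 2217 (2.93%) in the rest of the chromosome, and 96 h replicate 3 at 0 of 76, against 174 of 2217 (7.85%). A count of 0 of 76 allows a share of up to 3.95%.

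Many of the matches are copies of each other. The 76 strong matches had 37 different sequences. The sequence ACCAGCAGGGGGCACAATGG, that of the site at Ighv1-55, occurred 18 times in the distal part, and 1 of the 18 copies had a peak. The sequence ACCAGCAGGGGGTGGTGTAG, that of the sites at Ighv8-6 and Ighv1-56, occurred 10 times, and 2 of the 10 had a peak. The median share of unique words around the copies was 32.6% and 39.8%. The 3 distal sites of resting replicate 3 lay in such sequence, with 17.8%, 20.4% and 49.0% of their own 32-base words unique, whereas the sites of the 96 h pooled list at Ighv1-9 and Ighv1-14 had 100% and 98.8%. From which copy the reads of the resting peaks came was not tested.

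In the rest of chromosome 12 the share of strong matches with a peak moved with unique sequence. It was 26.1% (255 of 977) where at least 80% of the words around the match were unique and 0.887% (11 of 1240) elsewhere. In the region it was 3 of 23 (13%, exact 95% interval 2.78% to 33.6%) and 3 of 53 (5.66%, 1.18% to 15.7%). The interval for matches in unique sequence includes the share of the rest of the chromosome. In replicates alone, the 23 unique matches of the region had 0 peaks, against 198 of 977 (20.3%). The 3 with a peak in any list thus had it in pooled lists only. No interval was computed for the replicate counts, and this difference was not tested.

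**Figure D5:**
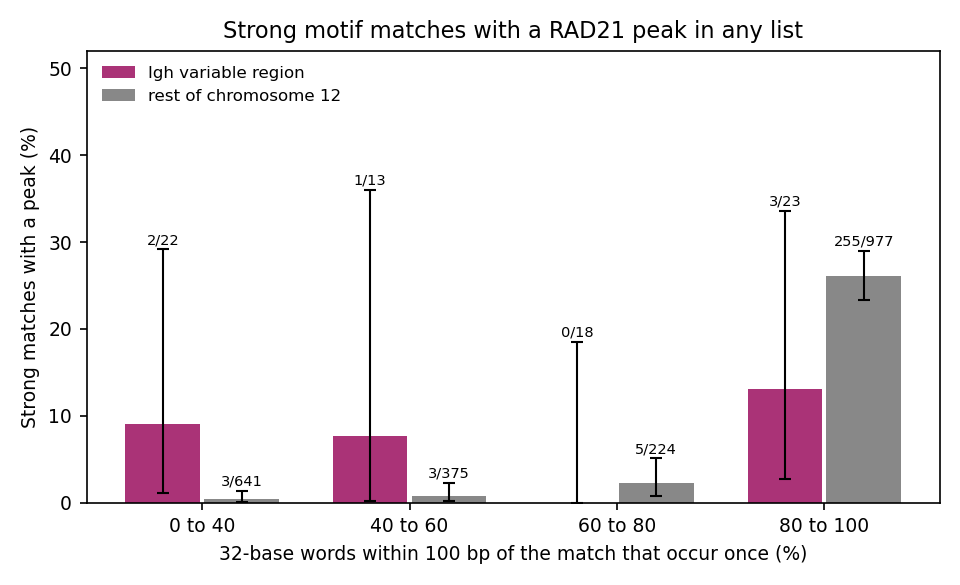
The bars give the percent of strong matches with a RAD21 peak in any list, in the Igh variable region and in the rest of chromosome 12, by the percent of 32-base words within 100 bp that occur once in the genome. Whiskers are exact 95% binomial intervals, for counting error only, and the fractions give the counts. In the rest of the chromosome the share is 26.1% in the most unique class and at most 2.23% in the others, and in the region it is between 0% and 13% with wide intervals.

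The V gene arrays of the other antigen receptors were set beside the region, a comparison chosen once the peaks were known. The Igh interval included the D and J segments, with 1 replicate peak, whereas the others held V genes only. The share of unique sequence in the other arrays was not measured. The Igk array on chromosome 6, whose V genes serve the kappa light chain of the same B cells, had 30 replicate peaks and 1.06 ± 0.635 peaks per Mb (SD, n = 9), against 9 peaks and 0.384 ± 0.815 per Mb in the Igh variable region. The Igh density was lower in 7 of 9 replicates and higher in 1 (mean difference -0.675 per Mb, exact sign-flip permutation p = 0.0156, adjusted p = 0.0469 over 3 arrays), and without 48 h replicate 2 the difference was -0.809 (adjusted p = 0.0469). In the Igk array 5 of 17 sites had peaks in at least 2 replicates, against 0 of 12. The 12 include 3 sites of pooled lists only and 6 of 48 h replicate 2, and this difference was not tested. The arrays of T cell receptors, which B cells do not rearrange, had 0.581 ± 0.503 (Tra and Trd) and 0.333 ± 0.661 (Trb) peaks per Mb. The differences of the Igh variable region from these were -0.197 and 0.051 per Mb (adjusted p = 0.516 and p = 1 by the same exact permutation test), so no difference from either was shown. At least 2 replicates had a peak at 2 of 5 sites in the Tra and Trd array and at 0 of 3 in the Trb array.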

How the data were processed

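RAD21 chromatin immunoprecipitation and sequencing was done in 9 samples, with 9 input libraries used only in peak calling. Chromatin was sheared to about 500 bp. The authors aligned reads to mm9 with Bowtie 2, drew an equal number of unique positions at random from each set, merged replicates into pooled sets, and called peaks with MACS 2 at a false discovery rate of 0.05. The deposited lists give the position and the score of each peak. The statistic behind the score is not given in the sources used here, so scores served only for ranks within a list. Lists held 821 to 8579 peaks (replicates) and 5579 to 12806 (pooled). The number of reads behind a peak was not analysed here. Exact binomial intervals (95%) and limits for a count of 0 (3 counts) cover counting error only.

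Peaks sharing at least 1 bp were merged into sites. VH, D and J genes came from GENCODE M1 on mm9, and all 112 VH genes were given symbols through RefSeq synonyms. The proximal part ran from the first VH gene through the first block of Ighv5 and Ighv2 genes, the distal part began at the first Ighv1 gene, and the middle part lay between. Expected numbers were per sequenced base pair. Replicates were the units of all tests, which were exact and two-sided, with a threshold of 0.05. Windows were tiled over all chromosomes, at least 90% sequenced. V gene arrays were runs of at least 20 annotated V genes. The 32-base words of chromosome 12 outside the region were sampled every 50 bp. Alternatives were the higher-scoring part of each list, lists cut to 821 peaks, other assignments, joins, parts and areas, a replicate block, and each replicate left out. Restricting to peaks with a motif match and the difference in number of peaks were added after the data were seen. Region, lists and tests were chosen with earlier results of these data known. Methods were tested on simulated data. Python 3.11.15, numpy 2.4.6, scipy 1.17.1, numba 0.67.0 and matplotlib 3.10.9 were used.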

Additional observations from a re-analysis of the deposited data

How the results depend on the processing

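The density result held its direction and its side of the threshold under every alternative run. Mean log2 ratios ran from -1.24 (lists of equal length) to -1.94 and, with a replicate left out, from -2.19 to -1.67 (exact permutation p from 0.0039 to 0.0312). Lists of equal length held 821 peaks, and resting replicate 2, of that length, had 0.635 peaks expected in the region. The ratio of such short lists falls below 0 easily, so this alternative adds little. Shares between time points gave an exact permutation p of 1 also with the replicate block (F = 0.523). Sites that differ between time points could not be called with the block or without it, since none is in more than 1 replicate. Same-numbered replicates of different time points correlated between -0.259 and 0.314 in their deviations, against -0.349 and 0.340 for differently numbered ones, so the numbers were not taken to pair the samples. Relative to 50, the median percentile lay at -25.3 without 48 h replicate 2 and at 23.3 without resting replicate 3, and neither could be tested. The distal part had 0.422 peaks per Mb more than the proximal part, and 0.237 with only 48 h replicate 2 or only resting replicate 3 left out. All replicate peaks of the region came from these 2 libraries. With parts of equal length no pair of parts passed the threshold either. Comparisons between time points are limited by the 7 of 9 replicates that had no peak in the region. The cause of these empty lists was not tested.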

Other observations

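The 12 sites of the Igh variable region were spaced at a median of 126.1 kb, against 72.3 kb between neighbouring sites of the whole of chromosome 12, and the longest stretch between neighbouring sites inside the region was 521.3 kb. For the 96 h pooled list, 230 of 947 windows of the same length (24.3%) held no more peaks than the 4 of the region, and for the resting pooled list 336 windows (35.5%) held no more than 2. Strong matches around Ighv genes included 4 copies of ACCAGCAGATGGCACAATGA in the distal part and 3 copies of ACCAGCAGGGGGCGCAGAGA in the proximal part, with a peak at 0 of these 7.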
